A study of Bubalus bubalis with 6 samples.

Results

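ACVR2A, INHBA and BMP4 are 3 genes of activin and bone morphogenetic protein (BMP) signalling, and the measurements described here are those of their probes on a DNA methylation array of buffalo bull sperm. The 3 genes were taken, of 7932 names on the array, by every non-control probe whose deposited gene name is exactly ACVR2A, INHBA or BMP4, whatever its values. This gave 26 of the 177440 non-control probes: 11 for ACVR2A, 6 for INHBA and 9 for BMP4. The series set sperm of high-fertile water buffalo (Bubalus bubalis) bulls against sperm of subfertile bulls. The high-fertile group held bulls 2, 3 and 5 and the subfertile group bulls 1, 4 and 5, with 1 array per bull and no treatment. All samples were frozen semen, and the labels do not give how fertility was scored, the age or the breed of a bull. The groups are therefore small sets of different animals. With 1 array per bull, a p-value rests on the spread of 6 arrays, which limma draws toward that of all features. In that spread, bull and array differences cannot be told apart. Methylated DNA immunoprecipitation (meDIP) pulls down sheared DNA with an antibody against 5-methylcytosine. On each array the bull's immunoprecipitated (IP) DNA, labelled Cy5, was hybridised with its input DNA, labelled Cy3.

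Activins and BMPs are secreted dimers of the transforming growth factor beta family. They assemble type I and type II serine/threonine kinase receptors on the cell surface, which phosphorylate SMAD proteins that then enter the nucleus and regulate target genes. INHBA encodes the beta A subunit, which forms activin A as a homodimer and inhibin A with the alpha subunit, both regulators of pituitary follicle-stimulating hormone. BMP4 encodes a ligand required for primordial germ cell formation in the mouse embryo. ACVR2A encodes a type II receptor that binds activins and several BMPs. In mature sperm the genome is largely silent, most of its CpG sites are methylated and CpG-dense promoters are usually unmethylated.

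Values are log2(IP/input) after the array median of the non-control probes was subtracted, so 0 is the median probe of that array and a positive value means more antibody-bound DNA than at that probe. The scale ranks DNA by antibody binding and gives no percentage of methylated CpG sites, and the CpG number of a fragment moves it as well. Probes were tested where each of the 6 arrays showed input signal well above background and no spot was flagged as uneven, which 20 of the 26 member probes met (9 of ACVR2A, 4 of INHBA and 7 of BMP4). Member probes are numbered here by their position within a gene. Many neighbouring probes on the array carry no gene name but overlap the members, so runs of at least 3 tested probes whose starts lie at most 60 bases apart were also averaged, and are called tiles. There were 12798 tiles on the array and 13 of them lay at the member genes, 11 of these holding a member probe. The tile rule was set after the files had been seen. No source used here names the genome build behind the probe coordinates. The series text names cattle (Bos taurus) as the organism of the array experiment, whereas the samples are labelled as buffalo, so which species' assembly the positions follow is not settled. The files state no exon, intron, untranslated or promoter class for a probe, so positions are printed as deposited. ACVR2A and BMP4 were found by symbol in the RefSeq gene table of assembly NDDB_SH_1 as protein-coding genes 102408304 and 102398788, and that table's coordinates were not used.

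The probes that the results below turn on are shown with each CpG site in capitals, since the antibody recognises methylated cytosine and these are the sites at which sperm DNA is mainly methylated. Sequences are those printed on the array, 60 bases each, in the direction of increasing coordinate, which all 1109 overlapping probe pairs at the 3 genes shared letter for letter. BMP4 probes 1 and 5 lay at chr10:68226797-68226856 and chr10:68227837-68227896 and are shown as the probe above the array median in every bull and as a probe with no CpG site.
BMP4 probe 1: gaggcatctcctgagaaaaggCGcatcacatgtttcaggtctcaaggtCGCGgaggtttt
BMP4 probe 5: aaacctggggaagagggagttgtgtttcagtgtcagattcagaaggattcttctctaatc
INHBA probes 5 and 6 lay at chr4:82136514-82136573 and chr4:82136534-82136593, overlap each other and are shown because their values parted between the first and the later scan dates.
INHBA probe 5: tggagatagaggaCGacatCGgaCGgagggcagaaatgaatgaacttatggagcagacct
INHBA probe 6: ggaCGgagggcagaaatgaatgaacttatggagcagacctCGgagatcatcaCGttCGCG
ACVR2A probes 2, 4 and 9 lay at chr2:50566877-50566936, chr2:50566937-50566996 and chr2:50567833-50567892, the first pair below the array median in every bull and the last above it.
ACVR2A probe 2: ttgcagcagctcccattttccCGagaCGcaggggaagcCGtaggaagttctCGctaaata
ACVR2A probe 4: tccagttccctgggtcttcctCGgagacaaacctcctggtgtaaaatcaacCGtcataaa
ACVR2A probe 9: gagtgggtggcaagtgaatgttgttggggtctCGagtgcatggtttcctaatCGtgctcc

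The arrays differed in signal, and this bears on every value below. Input DNA was well above background at 20 to 23 of the 26 member probes per array. IP DNA was well above background at 11 member probes in high-fertile bull 2 and 14 in subfertile bull 4, against 20 to 22 in the other 4 bulls. The arrays are split here by the scan dates in the file headers. The first session is the earliest date and held 3 arrays (high-fertile 2, high-fertile 3 and subfertile 4). The later session pools all later dates and held the other 3 (high-fertile 5, subfertile 1 and subfertile 5). High-fertile 5 and subfertile 5 were on 1 slide and the remaining arrays on another. Subfertile 1 shared the slide of the first session, but its header names a different extraction protocol. Session differences therefore cannot be fully told apart from slide and protocol. The tested probes of the whole array had medians of -0.33 to -0.26 in the first session and of -0.10 to -0.01 in the later one. For 5 member probes the array carries a second spot of the same sequence, and the 30 pairs of spots differed by a median of 0.18 (log2, range 0.02 to 1.06). The median gap between such spots was 0.41 in high-fertile bull 2 and 0.38 in subfertile bull 4, against 0.11 to 0.20 in the other bulls.

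**Figure D1:**
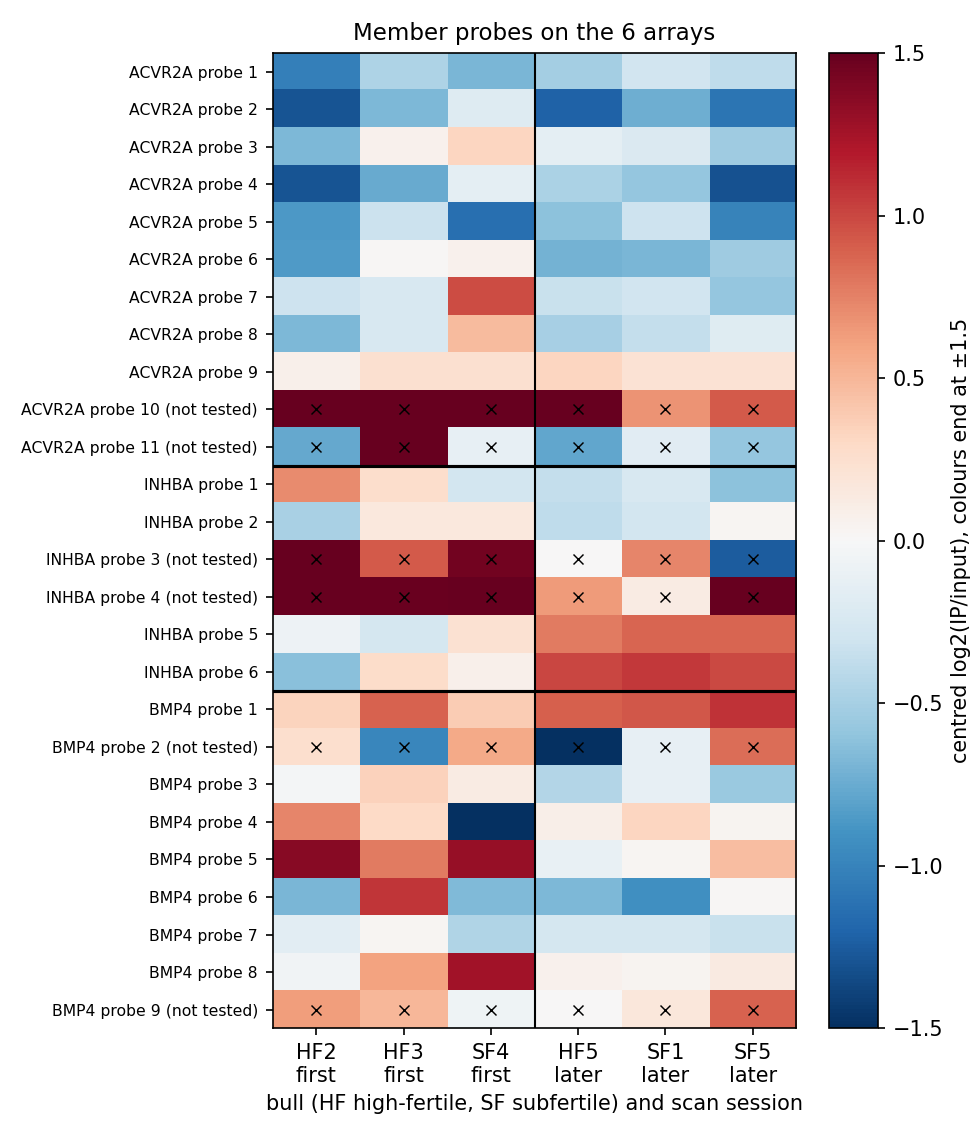
Colour map of centred log2(IP/input) for the 26 member probes (rows, numbered by position) on the 6 arrays (columns, ordered by scan session), with crosses on the 6 probes that were not tested. ACVR2A probes 1, 2, 4 and 5 are blue in every bull, BMP4 probe 1 is red in every bull, and INHBA probes 5 and 6 are red in the 3 bulls of the later session.

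BMP4, the ligand of the germ cell lineage, had a stretch with more antibody-bound DNA than the array median in every bull, and the level varied along the locus. BMP4 probe 1 was at 0.34, 0.88 and 0.90 in the high-fertile bulls (2, 3 and 5, the order kept throughout) and at 0.94, 0.38 and 1.09 in the subfertile ones (1, 4 and 5). All 6 bulls were above the array median and the groups overlapped. Its mean level of 0.75 was called different from 0 (limma, adjusted p = 0.0169 over all tested probes), whereas 2.74% of all tested probes were called above the median. The call was lost without subfertile bull 1 (0.72, adjusted p = 0.0658) and without subfertile bull 5 (0.68, adjusted p = 0.0910), as well as with normexp background correction (0.37, adjusted p = 0.121).

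The tile around that probe, BMP4 tile 1 (chr10:68226772-68226871, 12 probes), showed the same level over more spots. It was at 0.33, 0.80 and 0.96 in the high-fertile and at 1.04, 0.20 and 1.22 in the subfertile bulls. Its mean of 0.76 ± 0.41 (SD, n = 6 bulls) was called above the median (adjusted p = 0.00601 over all tiles; 4.78% of tiles were called above) and stood at the 99.3 percentile of all tiles. Averaged over its 11 unnamed probes alone, which overlap BMP4 probe 1 and so read largely the same DNA, it gave 0.76 ± 0.42. Of 11 alternatives, normexp correction alone ended the call (0.39, adjusted p = 0.114).

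Levels then changed sign several times along the 8 BMP4 tiles. BMP4 tile 5 (chr10:68228351-68228436), whose 4 probes carry no name, was at 0.48, 0.47 and 0.73 in the high-fertile and at 0.69, -0.09 and 1.19 in the subfertile bulls. Its mean of 0.58 ± 0.42 was called above the median (adjusted p = 0.0210), and 5 of the 6 bulls were above it. That call was lost without high-fertile bull 2 (0.60, adjusted p = 0.0690), subfertile bull 1 (0.56, adjusted p = 0.0667) or subfertile bull 5 (0.43, adjusted p = 0.102), and with normexp correction (0.27, adjusted p = 0.141). BMP4 tile 4 (chr10:68228021-68228163, 8 probes), the next tile before it, was at -0.03, 0.04 and -0.67 in the high-fertile and at -0.66, -0.38 and -0.62 in the subfertile bulls. Its mean of -0.39 ± 0.32 was called below the median (adjusted p = 0.0439; 26.4% of tiles were called below), and 8 of 10 alternatives ended that call, including the omission of any bull except high-fertile bull 3 (levels of -0.45 to -0.28 over the 6 omissions). The level itself shrank to -0.22 with centring on the tested probes, to -0.12 with normexp correction and to -1.34e-05 without the filter. BMP4 tile 7 was above 0 in all 6 bulls (0.04 to 0.49) with a mean of 0.30 ± 0.19 and was not called (adjusted p = 0.0734); with centring on the tested probes it was at 0.46 and was called (adjusted p = 0.0220). The remaining BMP4 tiles had means of -0.26 to 0.03, and none of them was called.

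The other BMP4 probes were closer to the median or scattered between arrays. BMP4 probe 5, which holds no CpG site, was at 1.36, 0.78 and -0.11 in the high-fertile and at 0.03, 1.30 and 0.46 in the subfertile bulls. The 3 first-session bulls held its 3 highest values, and its IP signal was well above background on 4 of 6 arrays. It was the single one of the 20 tested member probes called between sessions, lower in the later session with a difference of -1.12 (SE 0.28, adjusted p = 0.0473), where 1.58% of all tested probes were called lower and 6.5% higher. That call was lost without high-fertile bull 5 (-1.06, adjusted p = 0.284), subfertile bull 1 (-1.04, adjusted p = 0.152), subfertile bull 4 (-1.19, adjusted p = 0.192) or subfertile bull 5 (-1.23, adjusted p = 0.130), without the filter (adjusted p = 0.0904), with centring on the tested probes (adjusted p = 0.0509) and with normexp correction (-0.29, adjusted p = 0.141). BMP4 probe 7 (chr10:68228697-68228756) was at -0.16, 0.03 and -0.26 in the high-fertile and at -0.26, -0.46 and -0.33 in the subfertile bulls. It was the single tested member probe whose groups did not overlap, by a margin under 0.01, while 5.78% of all tested probes had groups apart. BMP4 probe 6 stood out in high-fertile bull 3 (1.07, against -0.92 to 0.01 in the other bulls), and BMP4 probe 4 in subfertile bull 4 (-1.74, against 0.04 to 0.74). Probe 4 held a substitute value on 1 array. Its IP signal was 115 in subfertile bull 4, against 509 to 1223 in the other bulls. BMP4 probe 8 was at 1.26 in subfertile bull 4 and at -0.05 to 0.61 elsewhere. Probes 4, 6 and 8 lacked an IP signal well above background on 2 to 3 of the 6 arrays.

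**Figure D2:**
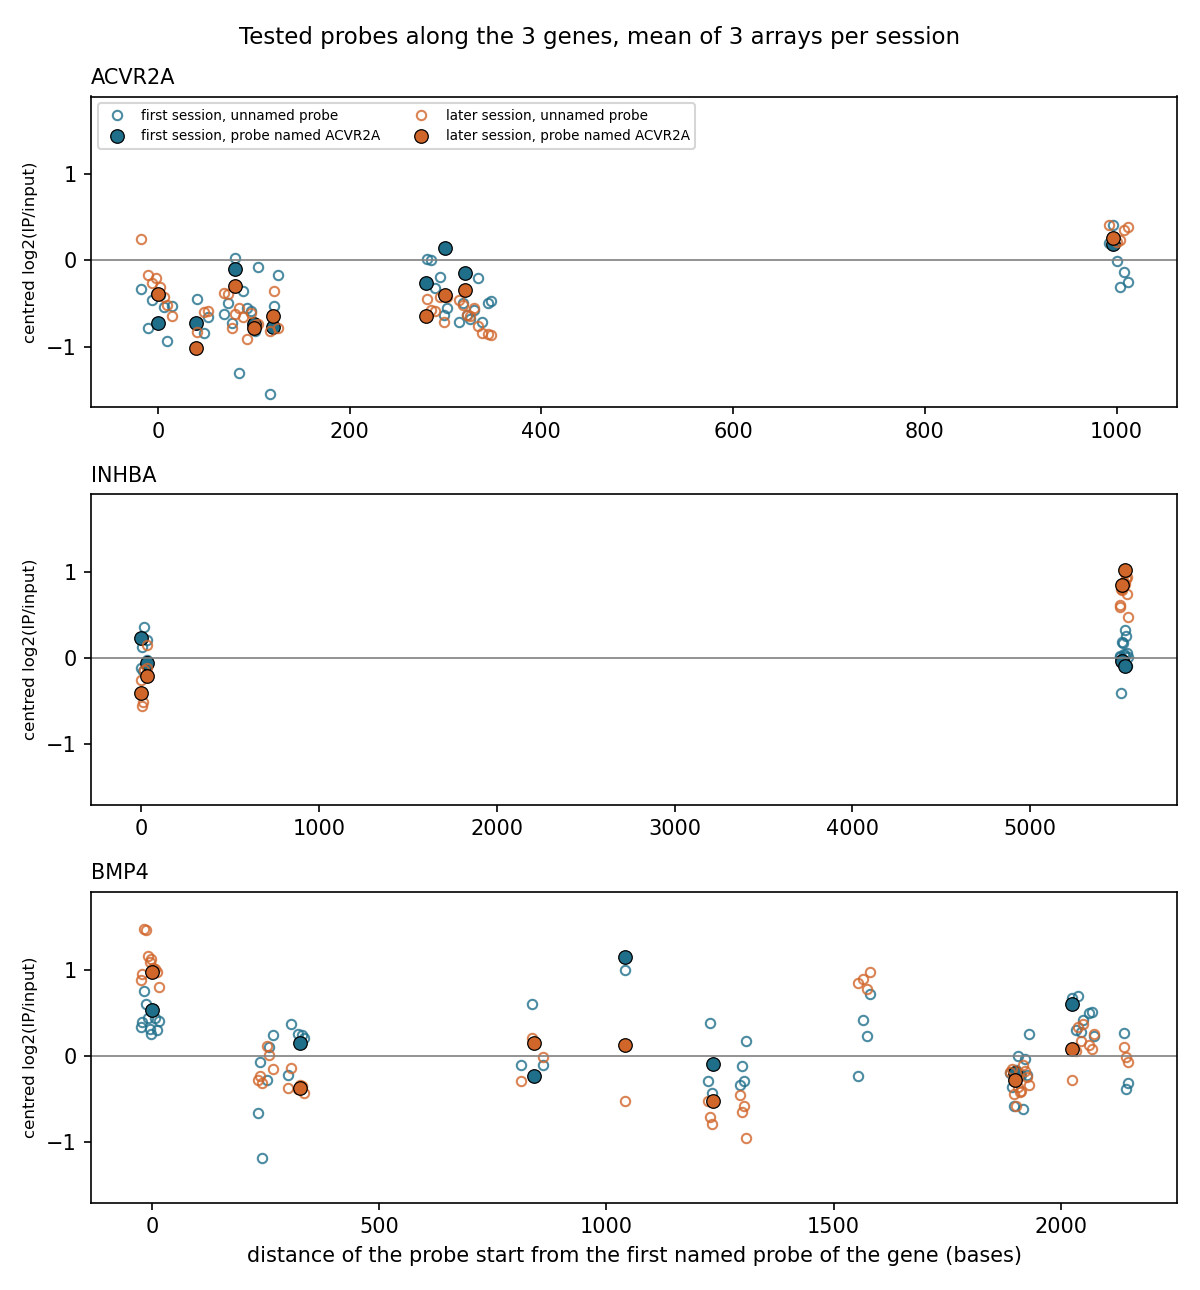
Centred log2(IP/input) of every tested probe at the 3 genes against its distance from the gene's first named probe (bases), as the mean of the 3 first-session arrays (teal) and of the 3 later arrays (orange), with filled points for named and open points for unnamed probes. At BMP4 the points of tiles 1 and 5 (starts at -25 and 1554 bases) lie mostly above the median, at ACVR2A those of tiles 1 and 2 (-18 and 280 bases) lie mostly below it, and at INHBA the sessions part at tile 2 (5502 bases).

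INHBA, the activin beta A subunit, had tested probes at both ends of the locus, and the 2 tiles behaved differently. INHBA tile 2 (chr4:82136502-82136609, 15 probes with a mean of 4.13 CpG sites) was at -0.12, -0.12 and 0.68 in the high-fertile and at 0.85, 0.34 and 0.90 in the subfertile bulls. The 3 later-session bulls were highest, with a mean of 0.81 against 0.03 in the first session. With group also in the model the sessions differed by 0.67 (SE 0.18, adjusted p = 0.0107), where 30.7% of all tiles were called higher in the later session and the median tile differed by 0.29. This session call was lost when arrays were centred on the tested probes (0.43, adjusted p = 0.0889), without high-fertile bull 5 (0.54, adjusted p = 0.217) and without subfertile bull 4 (0.80, adjusted p = 0.0547).

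The level of INHBA tile 2 over all bulls was 0.42 ± 0.46 (94.6 percentile of tiles) and was called above the median (adjusted p = 0.0495), a call that 8 of 11 alternatives ended; with normexp correction the level was 0.14 (adjusted p = 0.503). Of the 6 bulls, subfertile bull 4 was the only one whose omission kept it. INHBA probes 5 and 6 within that tile showed the same pattern. Probe 5 was at -0.07, -0.26 and 0.78 in the high-fertile and at 0.87, 0.23 and 0.88 in the subfertile bulls. Probe 6 was at -0.63, 0.27 and 1.01 in the high-fertile and at 1.06, 0.08 and 0.996 in the subfertile bulls. For both probes the later-session values lay between 0.78 and 1.06, above every first-session value.

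At the other end of the INHBA probes, tile 1 (chr4:82130997-82131094, 8 probes with a mean of 0.62 CpG sites) was at -0.13, 0.31 and -0.16 in the high-fertile and at -0.30, 0.04 and -0.30 in the subfertile bulls. Its mean of -0.09 ± 0.23 was not called different from the median (adjusted p = 0.599), and its session difference ran the other way at -0.30 (adjusted p = 0.245). INHBA probe 1 in this tile reached 0.71 in high-fertile bull 2 and 0.27 in high-fertile bull 3, and the other 4 bulls lay between -0.61 and -0.25. INHBA probe 2, which has no CpG site, lay between -0.48 and 0.16, and its second spot differed from it by 1.01 in high-fertile bull 2 and by 1.06 in subfertile bull 4. No INHBA probe of the 4 tested was called for its level.

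ACVR2A, the type II receptor, had a stretch with less antibody-bound DNA than the array median in every bull. ACVR2A tile 1 (chr2:50566819-50567021, 29 probes, 5 of them members) was at -0.94, -0.54 and -0.59 in the high-fertile and at -0.41, -0.30 and -0.63 in the subfertile bulls. All 6 bulls were below the array median. The mean of -0.57 ± 0.22 was called below it (adjusted p = 0.00603) and stood at the 13.2 percentile of tiles, so lower tiles were common on this array. Each of the 11 alternatives kept this call, with levels from -0.60 to -0.37. ACVR2A tile 2 (chr2:50567117-50567244, 18 probes), the next one along, was at -0.74, -0.27 and -0.66 in the high-fertile and at -0.49, -0.14 and -0.63 in the subfertile bulls. Its mean of -0.49 ± 0.24 was called as well (adjusted p = 0.0150), though not when arrays were centred on the tested probes (-0.32, adjusted p = 0.0766), nor without high-fertile bull 2 (-0.44, adjusted p = 0.0615), subfertile bull 1 (-0.47, adjusted p = 0.0592) or subfertile bull 5 (-0.44, adjusted p = 0.0841).

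Within tile 1, 4 of the 5 member probes were called below the median when tested singly. These 4 were all the ACVR2A probes called of the 9 tested, beside 15% of all tested probes. The 5 probes overlap their neighbours, so the 4 calls come from the same stretch of DNA and are not independent. ACVR2A probe 2, with 4 CpG sites, was at -1.30, -0.68 and -1.22 in the high-fertile and -0.73, -0.19 and -1.09 in the subfertile bulls (mean -0.87, adjusted p = 0.0127). Probe 4 was at -1.30, -0.76 and -0.47 in the high-fertile and at -0.58, -0.14 and -1.31 in the subfertile bulls (mean -0.76, adjusted p = 0.0263). Probes 1 and 5 had means of -0.56 (adjusted p = 0.0360) and -0.70 (adjusted p = 0.0220). Without subfertile bull 5 none of the 4 probes stayed past the threshold, at levels of -0.76 to -0.58. The omission of high-fertile bull 2, high-fertile bull 3, subfertile bull 1 or subfertile bull 4 each ended the call of 2 or 3 of the probes other than probe 2. With no filter on input, and so more probes in the adjustment, probe 2 alone of the 4 was called (adjusted p = 0.0379). Centring on the tested probes ended the calls of probe 1 (-0.40, adjusted p = 0.0743) and probe 4 (-0.60, adjusted p = 0.0577). Normexp correction kept all 4 calls, with probe 4 at -0.43 and probe 5 at -0.28.

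The 3 member probes of tile 2, ACVR2A probes 6, 7 and 8, had means of -0.45, -0.13 and -0.25 and were not called on their own. The last tested ACVR2A probe was not below the median in any bull. ACVR2A probe 9 was at 0.08, 0.24 and 0.33 in the high-fertile and at 0.22, 0.24 and 0.22 in the subfertile bulls. It was above 0 in all 6 bulls with a mean of 0.22 ± 0.08, the narrowest spread of the 20 tested member probes, and it was not called (adjusted p = 0.290). Its SE in that test, drawn toward the spread of all tested probes, was 0.14. The tile around probe 9 was not above 0 in every bull. ACVR2A tile 3 (chr2:50567829-50567908, 7 probes) was at -0.32, 0.29 and 0.40 in the high-fertile and at 0.29, 0.08 and 0.21 in the subfertile bulls. In high-fertile bull 2 the second spot of probe 9 was at 0.49. The 6 unnamed probes of the tile, that spot included, averaged -0.39 in this bull. Tile 3 had a mean of 0.16 ± 0.26 and was not called (adjusted p = 0.365). With centring on the tested probes it was at 0.32 and was called (adjusted p = 0.0405). With normexp correction its level was -0.01.

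The 6 members that were not tested have no reliable ratio. For ACVR2A probe 10 and INHBA probes 3 and 4 neither channel was well above background on any array. ACVR2A probe 11 had input above background on 4 arrays, and BMP4 probes 2 and 9 on 3 arrays each. Of these 6 probes, 4 hold no CpG site and the other 2 hold 1. Their processed signals include substitute values, so no level or group difference is drawn from them.

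**Figure D3:**
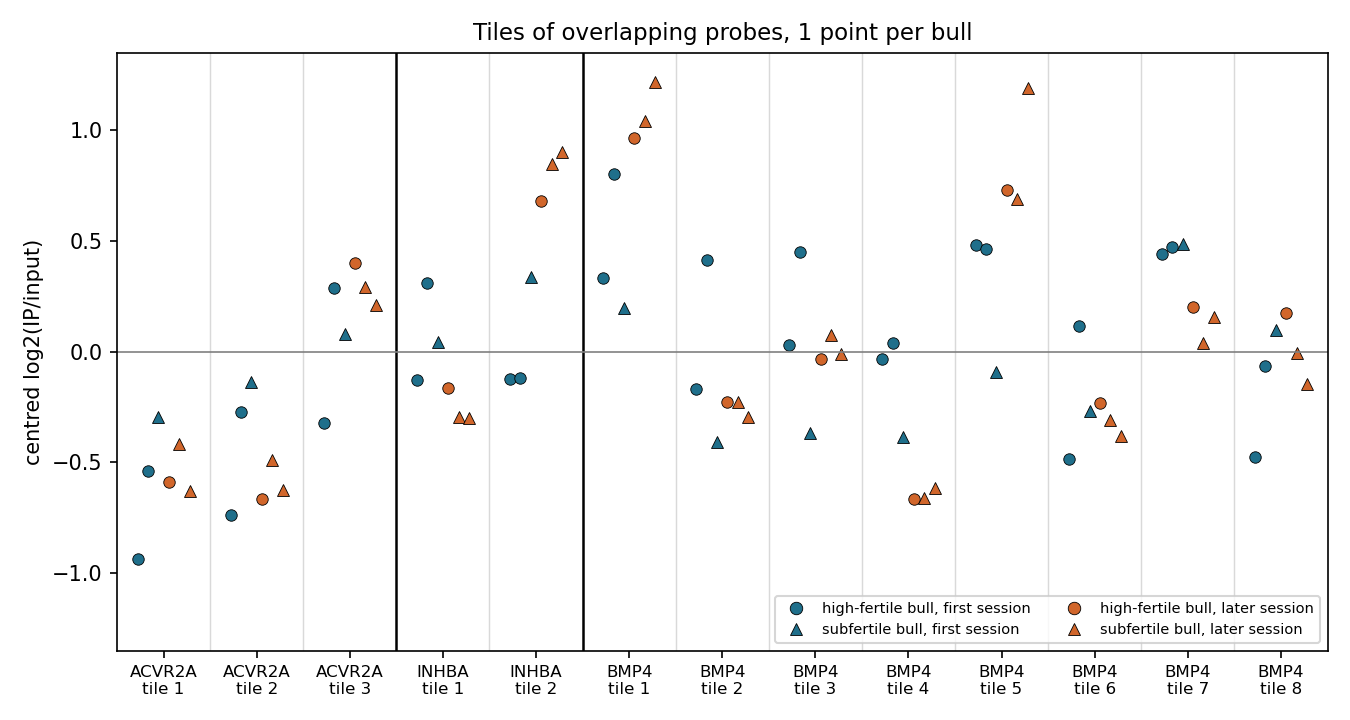
Centred log2(IP/input) of the 13 tiles at the 3 genes, 1 point per bull, with circles for high-fertile and triangles for subfertile bulls and with teal for the first and orange for the later scan session. ACVR2A tiles 1 and 2 are below 0 in all 6 bulls, BMP4 tile 1 is above 0 in all 6, and at INHBA tile 2 the 3 orange points (0.68 to 0.90) lie above the 3 teal points (-0.12 to 0.34).

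The comparison the study was designed for, high-fertile against subfertile bulls, called none of the 20 tested member probes, 13 member tiles or 3 gene regions, and 0% of all probes, tiles and gene regions (limma with Benjamini-Hochberg adjustment). A gene region is the mean of at least 3 tested probes of 1 name, and 737 genes qualified. At an unadjusted p under 0.05, 0 of the 20 member probes and 1.84% of all probes passed, and 0 of the 13 tiles and 0.516% of all tiles. The smallest p among the member probes was 0.124 at INHBA probe 1. The groups overlapped at each of the 13 tiles, where 3.2% of all tiles had groups apart. No member region or tile had a called interaction of group and session, as for 0% of all features. High-fertile minus subfertile differences were below 0 in 13 and above 0 in 7 of the 20 probes, beside 61.4% below 0 over all tested probes.

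The ACVR2A region was at -0.50 ± 0.25 in the high-fertile and -0.32 ± 0.30 in the subfertile bulls (SD, n = 3 each). The difference of -0.18 (SE 0.24) had a 95% confidence interval of -0.73 to 0.38 and an adjusted p of 0.99986. High-fertile bull 2 (-0.77) was lowest and subfertile bull 4 (-0.01) highest, both from the first session. Without subfertile bull 4 the difference was -0.020, without high-fertile bull 2 it was -0.042, without high-fertile bull 3 -0.29 and without subfertile bull 5 -0.32. Within the first session it was -0.51, and within the later session 0.016.

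The INHBA region was at 0.08 ± 0.19 in the high-fertile and 0.24 ± 0.17 in the subfertile bulls, a difference of -0.16 (SE 0.22, 95% confidence interval -0.64 to 0.33). With the session as a block it was -0.06, and within the first and the later session it was -0.05 and -0.08. With single bulls left out it ranged from -0.25 (without subfertile bull 4) to -0.06 (without high-fertile bull 2). INHBA tile 2 had the lowest unadjusted p of the 13 tiles, 0.0872, for a difference of -0.55 (SE 0.29, 95% confidence interval -1.19 to 0.10). All 15 alternatives kept this difference below 0, and none called it. It was -0.82 without high-fertile bull 5 (limma, unadjusted p = 0.00866, adjusted p = 0.283). Without subfertile bull 4 it was -0.73 (unadjusted p = 0.0383, adjusted p = 0.807). The other single omissions gave -0.47 to -0.41, and a slide block gave -0.55 (unadjusted p = 0.0414). Subfertile bulls were higher at this tile, but 2 of the 3 subfertile and 1 of the 3 high-fertile bulls belong to the later session, in which this tile was higher. With the session as a block the difference was -0.33 (95% confidence interval -0.71 to 0.06), and within the first and the later session it was -0.46 and -0.19.

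The BMP4 region was at 0.24 ± 0.32 in the high-fertile and 0.05 ± 0.06 in the subfertile bulls, a difference of 0.19 (SE 0.23, 95% confidence interval -0.33 to 0.71). High-fertile bull 3 was highest at 0.57 and high-fertile bull 5 lowest at -0.06, so the high-fertile bulls enclosed all subfertile values. Without high-fertile bull 3 the difference was 0.025, and without high-fertile bull 5 it was 0.34. It was 0.36 within the first session and -0.12 within the later one. The region value of subfertile bull 4 (0.03) includes BMP4 probe 4 at -1.74. With only the 3 probes whose IP was also well above background on every array, which leaves out probe 4, the difference was 0.09. For BMP4 tile 1 the main difference was -0.12 (95% confidence interval -0.81 to 0.57) and with the session as a block 0.10. Intervals of this width leave room for differences of more than 0.5 on the log2 scale at each gene in 1 direction, so these 6 arrays do not show that the groups are alike.

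**Figure D4:**
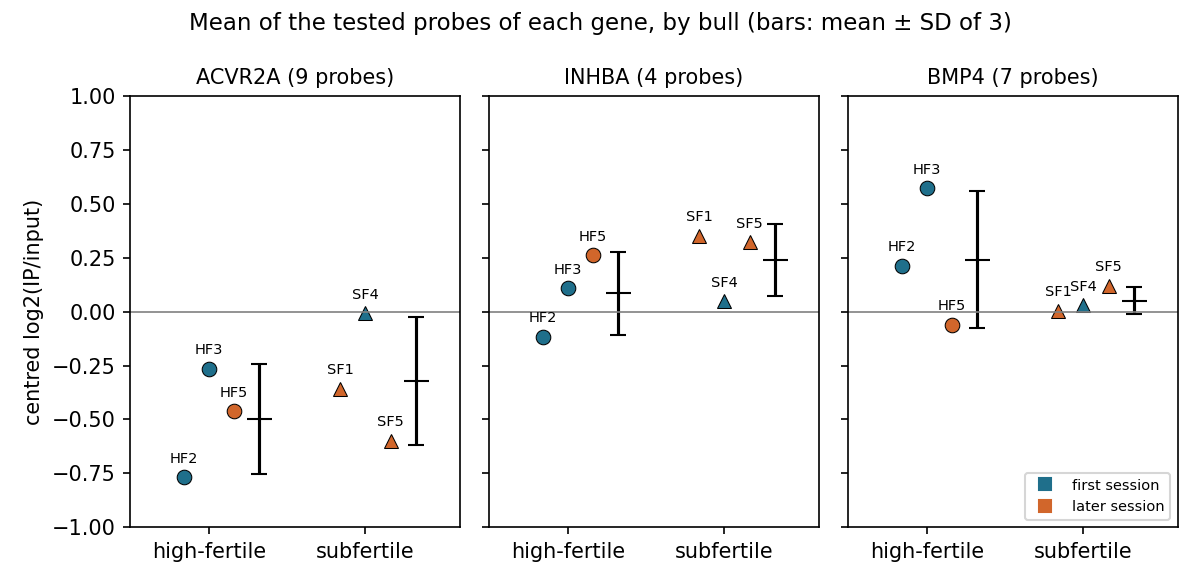
Centred log2(IP/input) of the ACVR2A, INHBA and BMP4 regions in each bull, by fertility group and coloured by scan session, with the mean ± SD of 3 bulls per group. The groups overlap at each of the 3 genes; all 6 bulls are below 0 at ACVR2A (-0.77 to -0.01), and high-fertile bull 3 is highest at BMP4 (0.57).

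**Figure D5:**
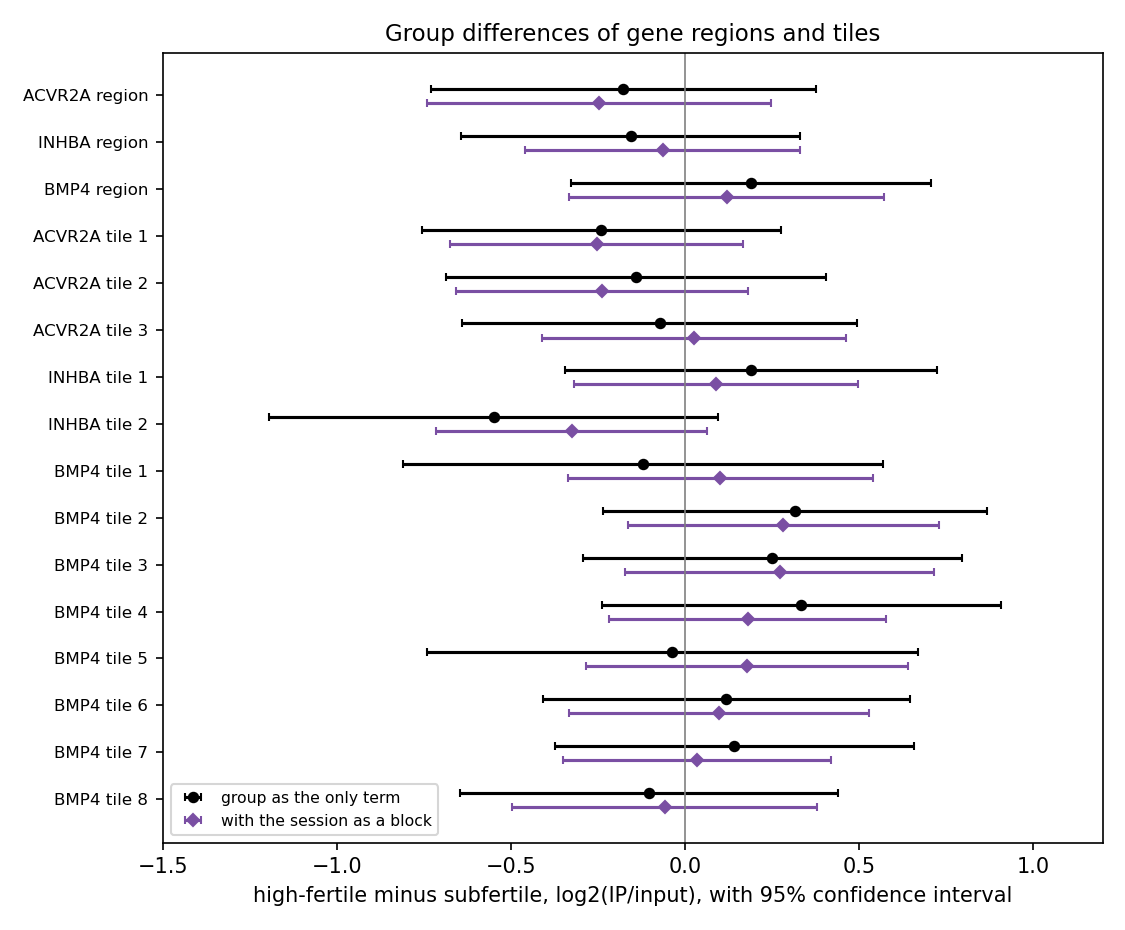
High-fertile minus subfertile difference of log2(IP/input) with its 95% confidence interval for the 3 gene regions and 13 tiles, with the group as the only term (black) and with the session as a block (purple). Every interval includes 0, and INHBA tile 2 is farthest from 0 at -0.55 and, with the block, -0.33.

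As gene regions, levels were -0.41 for ACVR2A, 0.16 for INHBA and 0.15 for BMP4, at the 20.1, 89.3 and 88.2 percentiles of the 737 regions. The ACVR2A region was called below the median (adjusted p = 0.0432; 20.1% of regions were called below), and 8 of 11 alternatives ended that call, with adjusted p between 0.0109 and 0.442 over all 11. It was lost without high-fertile bull 2 (-0.34), high-fertile bull 5 (-0.42), subfertile bull 1 (-0.40) or subfertile bull 5 (-0.34). INHBA and BMP4 were not called (adjusted p = 0.298 and 0.376), where 0.95% of regions were called above. The median gene region was itself at -0.18 and the median tile at -0.16. Centring on the tested probes moved these medians to -0.02 and 0.01, and the ACVR2A region to -0.25 (adjusted p = 0.229).

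Between scan sessions, with group as a second term, none of the 3 gene regions was called (INHBA was with normexp correction, at 0.36 and adjusted p = 0.0332), while 14% of all regions were called higher and 6.78% lower in the later session. The differences were -0.21 (SE 0.22) for ACVR2A, 0.28 (SE 0.18) for INHBA and -0.21 (SE 0.20) for BMP4. At the level of tiles the later session was called higher at 3 of 13 and lower at 0. Of all tiles, 30.7% were called higher and 4.1% lower, so higher calls were no more frequent at the members. Those 3 were INHBA tile 2, BMP4 tile 1 (0.67, SE 0.21, adjusted p = 0.0208) and BMP4 tile 5 (0.64, SE 0.22, adjusted p = 0.0314). The BMP4 tile 1 call was lost with centring on the tested probes (0.43, adjusted p = 0.142) and without high-fertile bull 5 (0.93), subfertile bull 1 (0.67), subfertile bull 4 (0.40) or subfertile bull 5 (0.59). That of BMP4 tile 5 was lost with the same centring (0.40), with no filter (adjusted p = 0.0811) and without high-fertile bull 5 (1.03), subfertile bull 4 (0.26) or subfertile bull 5 (0.48). The 3 tiles that gained in the later session were also the 3 called above the median over all bulls.

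CpG content, which the choice of members did not use, ran from 0 to 5 sites per member probe. Over all tested probes the median of the mean level over bulls fell from -0.06 at probes with no CpG site to -0.36 at probes with 7 or more. The course differed by session. In the first session (high-fertile 2 and 3, subfertile 4) the median fell from -0.08, 0.09 and -0.01 to -0.54, -0.56 and -0.55. In the later session (high-fertile 5, subfertile 1 and 5) it began at -0.10, -0.08 and -0.16. There it rose to 0.04, 0.01 and -0.05 at 2 sites before falling to -0.20, -0.11 and -0.30 at 7 or more. The median of the mean over bulls was -0.16 at 3 sites, -0.22 at 4 sites and -0.28 at 5 sites. BMP4 tile 1 and INHBA tile 2, with means of 3.42 and 4.13 sites per probe, were above the median of probes of like CpG content, while ACVR2A tiles 1 and 2, with 2.83 and 2.78 sites, were below them. This is a description of these arrays, in which probes of 1 tile share most of their sequence.

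Over the 6 arrays, after subtraction of each array's median over gene regions, the regions whose values were most like ACVR2A were CCDC45 (Pearson r = 0.990), GSK3B (0.988) and NUDCD2 (0.978). For INHBA they were DDX17 (0.954), RPRM (0.945) and ITPK1 (0.940), and for BMP4 they were DCTD (0.988), RASGRF1 (0.982) and MYC (0.975). Of 736 other regions, 14, 11 and 21 exceeded 0.9 for the 3 genes, the arrays share the session split, and 6 arrays give such coefficients little weight. Among the 3 members themselves r was -0.34 for ACVR2A with INHBA, 0.18 for ACVR2A with BMP4 and -0.50 for INHBA with BMP4.

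A list by role held 100 other genes of activin, BMP and related transforming growth factor beta signalling. Of these, 48 had a named probe, 31 had a tested probe and 6 could be measured as gene regions. None of the 6 was called between the groups. They were the transforming growth factor beta ligand TGFB2, the extracellular BMP modulator BMPER, the inhibitory SMAD7 and the target genes ID2, MSX1 and EOMES. No receptor on the list had enough tested probes. Their median high-fertile minus subfertile difference was 0.18, against -0.08 over all regions. Over the 66 tested probes of the 31 genes the median was 0.03, against -0.09 over all tested probes. TGFB2 was at 0.33 ± 0.18 in the high-fertile and 0.01 ± 0.44 in the subfertile bulls, with overlapping groups. MSX1, a homeobox gene, was the only region of the 6 whose groups did not overlap, at 0.26 ± 0.04 against 0.06 ± 0.17, where 2.99% of all regions had groups apart. SMAD7, which blocks signalling downstream of both ligand classes, was called below the array median in both groups together (-0.85, adjusted p = 0.00609). ID2, an early BMP target and inhibitor of basic helix-loop-helix factors, was called below it too (-0.38, adjusted p = 0.0309), and 7 of 11 alternatives ended the ID2 call. ID2 lost it without high-fertile bull 2 (-0.37), subfertile bull 1 (-0.42), subfertile bull 4 (-0.35) or subfertile bull 5 (-0.36). SMAD7, of the alternatives that gave it a value, lost the call only without the filter on input signal (adjusted p = 0.0894), and with normexp correction its level was -0.35. Probe by probe, 10 of the 66 tested probes of the list (15.2%) were called below the median and 0 above, close to the 15% below over all tested probes. Those 10 belonged to SMAD7, ID2, PMEPA1, GDF6 and MSX2.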

How the data were processed

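The deposited scanner tables hold linear spot intensities, extracted per the file headers with Agilent Feature Extraction 10.7.3.1. The header of subfertile bull 1 names that software's CGH protocol and the other 5 its ChIP protocol. They also hold a deposited log10 ratio per spot, not used for the main values, and the deposited series table holds a log2 ratio of IP over input. Gene names occur in the 3 first-session files (19762 probes each) and were carried to the other files by probe. The ratio of processed signals was taken as log2 and centred on each array's median, with no loess or quantile step, since most probes can carry signal. No dyes were swapped.

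Tests used limma 3.58.1 (lmFit and eBayes, 2-sided, Benjamini-Hochberg over all 110686 probes, 12798 tiles or 737 regions, threshold 0.05) in R 4.3.3 (package data.table, version 1.17.8), checked on simulated data. Sessions hold 1 bull of a group alone, assumed to vary like the others. Figures used matplotlib 3.10.9. Named were all member probes, up to 2 regions per pathway role by unadjusted p, and the 3 regions most like each member; called levels, and PMEPA1, GDF6 and MSX2, were named after their values were seen. Alternatives covered the filter, normexp (offset 50), the series table, centring, session and slide as blocks, each session alone, and each bull left out. Members, lists and rules were chosen with earlier results of these data known.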

Additional observations from a re-analysis of the deposited data

How the results depend on the processing

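No paired analysis was possible because the groups share only bull number 5 in the labels, and the bulls are different animals. The precision is limited by 6 arrays, and in high-fertile bull 2 and subfertile bull 4 by an IP signal well above background at few probes. No fit called a member probe, tile or gene region for the group difference, among the 10 to 26 probes, 7 to 13 tiles and up to 3 regions that each could test. Over all features it called 0 regions and 0 probes, except in the later session alone (4 regions and 34 probes). There the difference was 0.016 for the ACVR2A region and -0.12 for BMP4. Without the filter INHBA was at 0.10, and with normexp BMP4 was at -0.020. BMP4 tile 1 was at 0.10 with the session block and at 0.37 in the first session alone, and its difference ranged from -0.43 to 0.080 when each bull was left out.

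Level calls numbered 155 regions, 19596 probes and 3987 tiles. Without the filter 3 regions were called, with IP and input both above background 35 regions, 11547 probes and 1990 tiles, with normexp 269 regions and 30059 probes, and with centring on tested probes 61 regions. With each bull left out the counts ranged from 26 to 194 regions, 1993 to 21497 probes and 1744 to 4648 tiles. With normexp ACVR2A tile 3 was at -0.0073. Session calls numbered 153 regions, 8941 probes and 4449 tiles. They numbered 1599 regions and 2930 probes without the filter, 95 regions and 16395 probes with both channels above background, 290 regions and 33436 probes with normexp, and 2934 probes with centring on tested probes. They ranged over 0 to 249 regions, 0 to 20318 probes and 300 to 5195 tiles when each bull was left out. The INHBA session difference was -0.26 without the filter. With each bull left out it ranged from -0.47 to 0.054 for ACVR2A and from -0.46 to 0.032 for BMP4. The cause of these changes was not tested. The fits also differ in size: those with both channels above background or a bull left out hold fewer probes or bulls. The fit without the filter holds more regions (2791 against 737).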
